A study of Mus musculus with 2 samples.

Results

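The Mir17hg cluster, known for its ends miR-17 and miR-92, is a row of 6 microRNA hairpins, Mir17, Mir18, Mir19a, Mir20a, Mir19b-1 and Mir92-1, carried by the transcript of that host gene on mouse chromosome 14. The 6 genes were taken by their position in that cluster and matched through their Ensembl identifiers, out of 2202 microRNA genes in the count tables. Counts came from microRNA sequencing of the adrenal gland of B6CASTF1/J males, F1 hybrids of C57BL/6J and CAST/EiJ, at 36 days of age, with RNA selected for sizes under 30 (unit not given). The labels give 2 biological replicates, from animals numbered 3 (replicate 1) and 4 (replicate 2) but filed under a single donor record, and name no treatment. There was 1 group and no second condition, so each difference below is between these 2 libraries.

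The cluster is made as 1 long primary transcript, from which the enzyme Drosha cuts the hairpins and Dicer then releases the mature strands. A mature microRNA finds its target messenger RNAs mainly through its seed, bases 2 to 8 from the 5′ end, so that microRNAs with the same seed share many targets. The cluster is known as an oncogenic unit driven by Myc and E2F factors, and it lowers the proteins of Bcl2l11 (Bim), which promotes cell death, and Cdkn1a (p21), which restrains the cell cycle. It has a pair of paralogous clusters, the Mir106b cluster in an intron of Mcm7 and the Mir106a cluster on the X chromosome.

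The mature strands below, the main arm of each hairpin as the field commonly names it, are shown because the 6 genes hold only 4 seeds, which decide how their reads can be grouped. Sequences are from RefSeq (GRCm38.p6), which held all 6 members. The seed is in capitals.

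Mir17, miR-17-5p: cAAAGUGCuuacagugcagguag

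Mir20a, miR-20a-5p: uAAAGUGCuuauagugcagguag

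Mir18, miR-18a-5p: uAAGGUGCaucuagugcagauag

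Mir19a, miR-19a-3p: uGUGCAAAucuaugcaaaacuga

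Mir19b-1, miR-19b-3p: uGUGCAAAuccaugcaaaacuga

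Mir92-1, miR-92a-3p: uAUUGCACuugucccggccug

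Mir17 and Mir20a shared the seed AAAGUGC and differed at 2 of 23 bases, C1U and C12U, with positions counted from the 5′ end and the base of miR-17-5p first. Mir19a and Mir19b-1 shared GUGCAAA and differed at 1 base, U11C. Mir18 had the seed AAGGUGC and Mir92-1 had AUUGCAC, each alone in the cluster.

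The members lay on the plus strand of chromosome 14 in mm10, within 836 bases from 115043671 to 115044506. Mir17 (ENSMUSG00000065508.1) ran from 115043671 to 115043754, Mir18 (ENSMUSG00000065403.1) from 115043851 to 115043946 and Mir19a (ENSMUSG00000065416.1) from 115044000 to 115044081. Mir20a (ENSMUSG00000065442.1) ran from 115044157 to 115044263, Mir19b-1 (ENSMUSG00000076256.1) from 115044305 to 115044391 and Mir92-1 (ENSMUSG00000076062.1) from 115044427 to 115044506. All 6 fell within exon 2 of the only annotated Mir17hg transcript of GENCODE M21, with gaps of 35 to 96 bases between neighbouring hairpins. The hairpins were alike in base composition, at 43.7% GC for Mir19b-1 to 47.5% for Mir92-1. Their computed folding energies ranged from -38.7 kcal/mol for Mir19a to -29.2 kcal/mol for Mir18. The main arms differed more, from 34.8% GC in miR-19a-3p to 57.1% in miR-92a-3p.

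Replicate 1 had 4494857 reads on microRNA genes in the sense direction and replicate 2 had 2078824, which are 36.6% and 20.1% of all reads. One read was therefore worth 0.222 and 0.481 CPM, the count scaled to a total of 1000000 over all gene rows. A gene at 0 counts may hold up to 3, or 0.667 and 1.44 CPM. Neuroendocrine genes, the markers listed for the adrenal medulla and other endocrine cells, were present in both libraries at 48802 and 54157 CPM in sum over all 4 of 4 listed genes, led by Mir375. The libraries stood apart in markers of other tissues. The 3 erythroid genes in the files (of 4 listed) held 15841 CPM of replicate 1 but 1091 CPM of replicate 2. The 3 pancreas acinar genes had 0 counts in replicate 1 and 326 CPM in replicate 2, and the 5 epithelial miR-200 genes had 64.7 and 3576 CPM. In tissue libraries, fewer cells of a type and less microRNA per cell cannot be told apart.

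Counted together, the 6 genes held 19720 reads in replicate 1 and 6100 in replicate 2. As a share of all gene counts this was 0.439% (0.433 to 0.445) and 0.293% (0.286 to 0.301), with Clopper-Pearson 95% limits, and the libraries averaged 0.366% ± 0.103 (SD, n = 2). Intervals cover counting error only and take each read as independent. Copies of a molecule made by PCR cannot be recognised in these counts, so the intervals may be too narrow. The gap between the libraries was many times wider than these intervals. No read was assigned to the antisense strand of any member in either library, so the sense counts and the strand-blind counts of the members were identical.

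Mir17, the first hairpin of the cluster and the namesake of its seed family, was the highest member in both libraries. It had 9433 reads (2099 CPM) in replicate 1 and 3769 reads (1813 CPM) in replicate 2, or 1956 ± 202 CPM (SD, n = 2). It ranked 52 and 63 among all 2202 genes. Mir20a, whose mature strand shares the Mir17 seed, had 4801 and 1145 reads (1068 and 551 CPM in replicates 1 and 2), or 809 ± 366 CPM. Mir92-1, the last hairpin, whose mature miR-92a is known for restraining growth of new vessels, had 4546 and 979 reads (1011 and 471 CPM), or 741 ± 382 CPM. Mir18, the second hairpin, had 915 and 204 reads (204 and 98.1 CPM), or 151 ± 74.6 CPM. These 4 genes held nearly all reads of the cluster, and each was higher in replicate 1.

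The miR-19 genes, whose mature strands are known for much of the oncogenic activity of the cluster, were almost uncounted. Mir19a had 16 reads in replicate 1 and 1 in replicate 2, which is 3.56 CPM (95% interval 2.03 to 5.78) and 0.481 CPM (0.0122 to 2.68). Mir19b-1 had 9 and 2 reads, or 2.00 CPM (0.916 to 3.80) and 0.962 CPM (0.117 to 3.48). In replicate 2 both stood under the limit of 1.44 CPM that a count of 0 allows. Together they made up 0.127% of the cluster's reads in replicate 1 (0.0821 to 0.187) and 0.0492% in replicate 2 (0.0101 to 0.144). Mir17 had 590 times the reads of Mir19a in replicate 1 (interval 363 to 1032), although Mir19a lies between Mir18 and Mir20a in the same annotated exon.

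**Figure D1:**
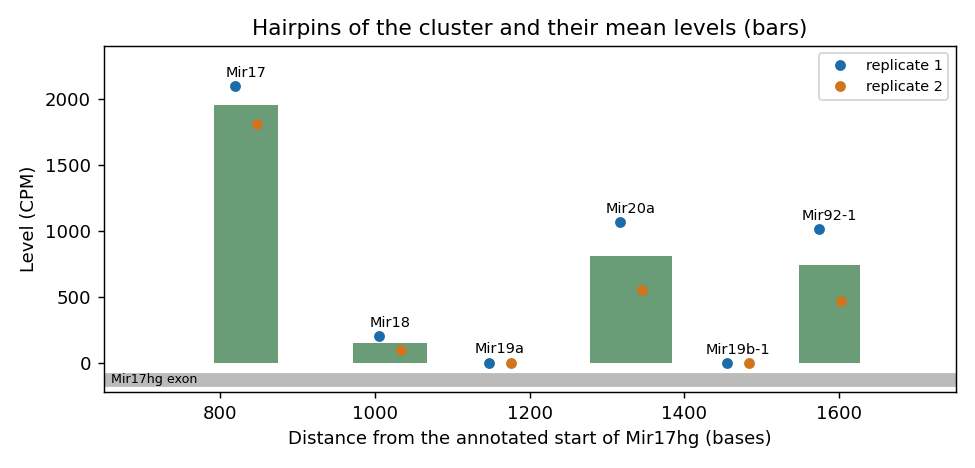
Levels along the cluster: each green bar spans a hairpin on the horizontal axis (distance in bases from the annotated start of Mir17hg), its height on the vertical axis is the mean level (CPM) and the dots are the 2 libraries. The bars of Mir17, Mir20a and Mir92-1 stand out at 1956, 809 and 741 CPM, while Mir19a and Mir19b-1, at 2.02 and 1.48 CPM, cannot be seen beside their neighbours.

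The order of the means was Mir17, Mir20a, Mir92-1, Mir18, Mir19a, Mir19b-1. Small RNA reads are not fragments of a long transcript, so CPM was the main scale. Whether strands of different sequence were captured equally well was not tested. Levels, ratios and sums of different genes therefore compare counted reads, not numbers of molecules. Per base of hairpin length the means were 23.3 CPM for Mir17, 9.26 for Mir92-1, 7.56 for Mir20a, 1.57 for Mir18, 0.0246 for Mir19a and 0.0170 for Mir19b-1, so that Mir92-1 and Mir20a changed places. The mean ± SD ranges of Mir20a and Mir92-1 overlapped on the CPM scale, although Mir20a was the higher in each library, and so did those of Mir19a and Mir19b-1, whose order turned round in replicate 2. The ranges of the 2 libraries did not overlap between Mir17 and Mir20a, between Mir92-1 and Mir18, or between Mir18 and Mir19a. With 2 values against 2, an exact two-sided permutation test cannot go below p = 0.33, so the order carries no test.

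**Figure D2:**
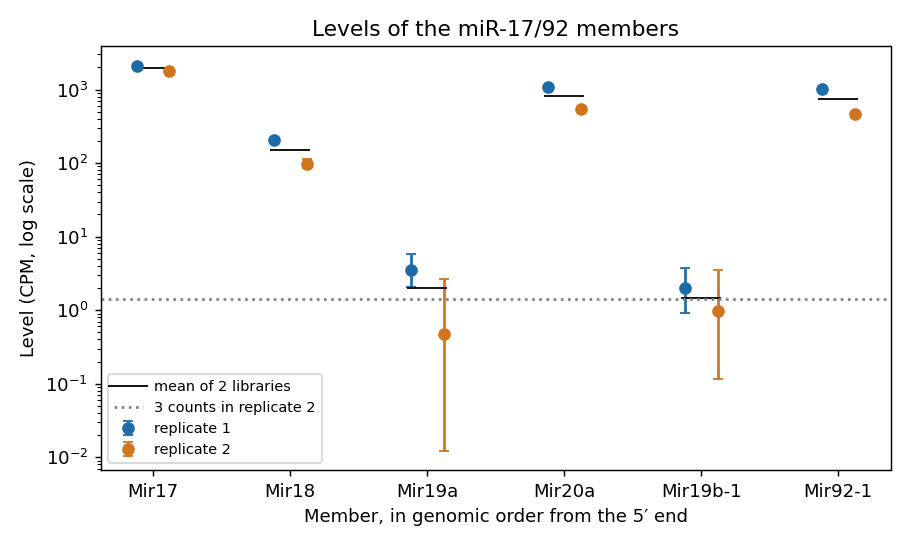
Level of each member (vertical axis, CPM on a log scale) in genomic order (horizontal axis); dots are the libraries with exact 95% counting intervals, dashes the mean of 2 libraries, and the dotted line marks 3 counts in replicate 2. Mir17, Mir18, Mir20a and Mir92-1 lie at 98.1 CPM or above in both libraries, and both miR-19 genes lie under 4 CPM.

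Reads from identical sequences at more than 1 place are listed apart from the genes in these files, so the copies of each mature strand bear on its count. Both annotated arms of Mir17, Mir18 and Mir20a, and the annotated arm of Mir19a, were found in full in a single hairpin among all 2202 GENCODE M21 hairpins. The strands miR-19b-3p and miR-92a-3p were each found in 2 hairpins, the second being Mir19b-2 and Mir92-2 of the X chromosome cluster. Places outside annotated hairpins were not searched. The 4 hairpins of these pairs are shown because their shared and differing parts decide which reads can be placed. Annotated mature arms are in capitals.

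Mir19b-1: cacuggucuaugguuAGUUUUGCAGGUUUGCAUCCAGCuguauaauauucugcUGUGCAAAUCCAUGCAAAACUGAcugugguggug

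Mir19b-2: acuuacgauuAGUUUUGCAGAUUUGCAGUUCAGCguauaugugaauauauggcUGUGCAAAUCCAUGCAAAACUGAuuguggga

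Mir92-1: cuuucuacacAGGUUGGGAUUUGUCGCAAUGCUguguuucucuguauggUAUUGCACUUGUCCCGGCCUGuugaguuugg

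Mir92-2: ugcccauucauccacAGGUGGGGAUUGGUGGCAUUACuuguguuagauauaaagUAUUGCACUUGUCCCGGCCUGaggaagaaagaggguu

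Around miR-19b-3p the hairpins were identical over 25 bases, and around miR-92a-3p over 22 bases. In both pairs they part at the base right after the 3′ end of the annotated strand, C against U for the miR-19b pair and U against A for the miR-92a pair. A read of just the annotated strand therefore could not be placed at either locus, and a read that runs past its 3′ end could. Mir92-1 held 4546 and 979 reads in spite of its copy, and Mir92-2 held 228 and 20. Mir19b-2 had 0 counts in both libraries, beside the 9 and 2 reads of Mir19b-1. Mir19a, with no second copy among the hairpins, had 16 and 1 reads. Reads that map to several places made up 29.8% of all reads in replicate 1 and 21.5% in replicate 2, and how many of them came from miR-19b or miR-92a was not analysed here. The levels of Mir19b-1 and Mir92-1, and the shares and ratios that rest on them, are uncertain for this reason. Levels of single arms cannot be given because reads are counted per hairpin.

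The make-up of the cluster's reads differed between the libraries, and these shares do not depend on how the libraries are scaled to each other. Mir17 took 47.8% of the cluster in replicate 1 (interval 47.1 to 48.5) and 61.8% in replicate 2 (60.6 to 63.0), or 54.8% ± 9.87 (SD, n = 2). Mir20a took 24.3% and 18.8%, Mir92-1 took 23.1% and 16.05%, and Mir18 took 4.64% and 3.34%. Their intervals did not overlap between the libraries. Mir20a, Mir92-1 and Mir18 together made up 52.0% in replicate 1 and 38.2% in replicate 2.

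The ratios among these 3 genes differed less between the libraries than those with Mir17. Reads of Mir20a over Mir92-1 stood at 1.06 in replicate 1 (interval 1.01 to 1.10) and 1.17 in replicate 2 (1.07 to 1.28). Reads of Mir20a over Mir18 stood at 5.25 (4.89 to 5.64) and 5.61 (4.83 to 6.55), and those of Mir92-1 over Mir18 at 4.97 (4.63 to 5.34) and 4.80 (4.12 to 5.61). The ratio in replicate 2 over that in replicate 1 was 1.11 for Mir20a over Mir92-1 (95% counting interval 1.01 to 1.22, log scale), just beyond counting error. It was 1.07 (0.907 to 1.26) and 0.966 (0.818 to 1.14) for the pairs with Mir18, within counting error. Reads of Mir17 over Mir20a, the other gene with its seed, stood at 1.96 (1.90 to 2.03) and 3.29 (3.08 to 3.52). Those of Mir17 over Mir92-1 stood at 2.08 (2.00 to 2.15) and 3.85 (3.59 to 4.13), and those of Mir17 over Mir18 at 10.3 (9.63 to 11.0) and 18.5 (16.04 to 21.4). The 3 ratios with Mir17 thus differed between libraries by 1.68 (1.55 to 1.81), 1.86 (1.71 to 2.01) and 1.79 times (1.53 to 2.10), beyond counting error. Over the 2 libraries they were 2.63 ± 0.938, 2.96 ± 1.25 and 14.4 ± 5.77 (SD, n = 2).

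**Figure D3:**
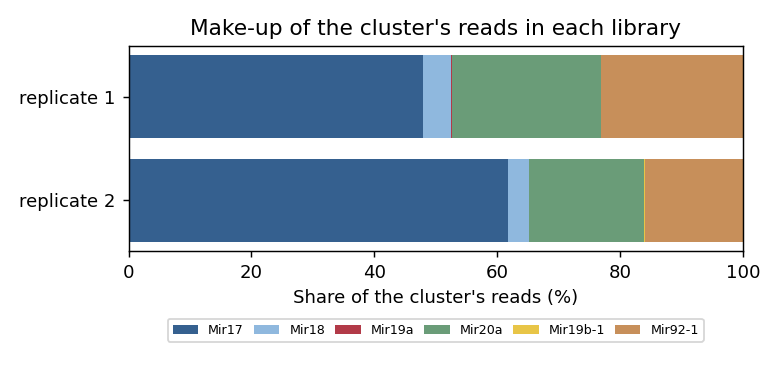
Share of the cluster's reads (horizontal axis, %) taken by each member, 1 bar for each library. Mir17 fills 47.8% of the bar in replicate 1 and 61.8% in replicate 2, and Mir20a, Mir92-1 and Mir18 each take a smaller share in replicate 2.

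To set the members against all genes, the 2 counts of each gene with 10 or more reads in each library entered an exact binomial test, two-sided, after TMM scaling (an edgeR method that centres the bulk of genes). P-values were Benjamini-Hochberg adjusted over 333 genes. Of the 6 members 4 reached that minimum, and all 4 were called higher in replicate 1. The same test called 78.1% of all 333 genes in either direction and 38.7% higher in replicate 1, because it takes counting noise as the only error. Mir92-1 stood 2.44-fold higher in replicate 1 (interval 2.28 to 2.62, exact binomial adjusted p = 1.02e-167). This ratio of Mir92-1 covers only the reads that could be placed at that gene. Mir18 stood 2.36-fold higher (2.02 to 2.76, exact binomial adjusted p = 7.08e-33) and Mir20a 2.20-fold higher (2.07 to 2.35, exact binomial adjusted p = 5.04e-147). Mir17 stood 1.32-fold higher (1.27 to 1.37, exact binomial adjusted p = 3.03e-47). On the log2 scale, replicate 2 over replicate 1, these are -1.29, -1.24, -1.14 and -0.40.

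Set against the general difference between the libraries, the members were not called. The edgeR exact test, with a biological coefficient of variation of 52.2% estimated from the same 2 libraries, gave each of the 4 an adjusted p of 0.987. None of the 4 had an unadjusted p under 0.05 by that test, against 17 of 333 genes, and it called 6 genes in all, or 1.80%. The median log2 ratio of the 4 members was -1.19, beside 0.01 over all 333 genes, whose middle part ran from -0.59 to 0.69 (quartiles). Of all tested genes, 6.31% lay further toward replicate 1 than Mir92-1, 7.81% further than Mir18, 9.91% further than Mir20a and 35.1% further than Mir17. The log2 ratio of Mir17 exceeded those of the other 3 by 0.74 to 0.89, which is less than the quartile range of 1.28 over all genes.

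Mir19a and Mir19b-1 missed the count minimum. Their log2 ratios were -3.07 (counting interval -8.46 to -0.39) and -1.24 (-4.49 to 1.03), so the sign of the latter is unresolved. Without a minimum, over 749 genes, Mir19a passed the exact binomial test (adjusted p = 0.0154) and Mir19b-1 did not (adjusted p = 0.431). In that setting 39.9% of all 749 genes were called in either direction. The Mir19a call rests on 16 reads against 1.

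**Figure D4:**
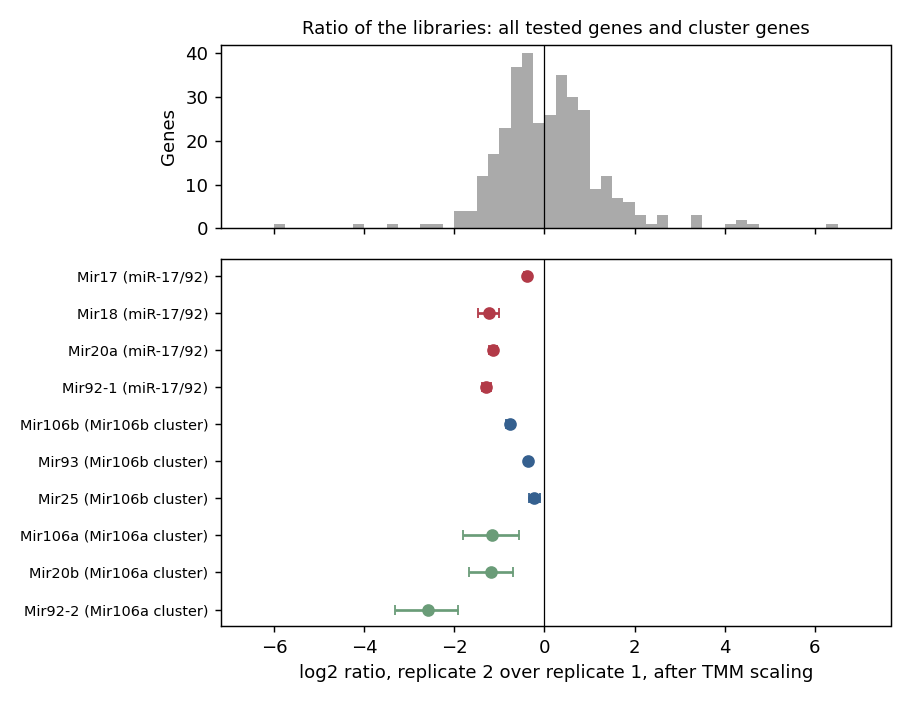
Top, number of genes (vertical axis) by log2 ratio of replicate 2 over replicate 1 after TMM scaling (horizontal axis) for the 333 tested genes; bottom, the same ratio for the tested genes of the 3 paralogous clusters with counting 95% intervals. All 10 cluster genes lie left of 0, with Mir18, Mir20a and Mir92-1 between -1.14 and -1.29, and Mir17 at -0.40.

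Markers of blood and other tissues also differed between the libraries, some toward replicate 1 and some toward replicate 2. The exact binomial test called 78.1% of all 333 genes in either direction and 38.7% higher in replicate 1. Among the 3 erythroid genes tested, Mir451a (log2 ratio -4.18) and Mir144 (-3.42) were called for replicate 1, and Mir486 stood at -0.33 without passing the test. Leukocyte genes, all 5 of 5 measured, split into 3 higher in replicate 1 (among them Mir142 at -0.52) and 2 higher in replicate 2 (Mir146 and Mir150), with sums of 3219 and 3899 CPM. The endothelial gene Mir126a stood at -0.39, and Mir126b did not pass the test. All 5 epithelial genes were higher in replicate 2, with Mir200c, Mir200b and Mir429 at the highest mean levels, and Mir217, Mir216b and Mir216a of pancreas acini had 530, 91 and 56 reads there. The neuroendocrine genes split into 3 higher in replicate 1 (Mir7b and Mir7-1 among them) and Mir375 higher in replicate 2, at a log2 ratio of 0.04 that turned to -0.01 with TMM over genes of 5 or more counts and to -0.12 with no minimum. The part of these markers in the ratios of the Mir17hg cluster members was not tested. Their levels cover only reads that could be placed, and copies of their mature strands were not searched.

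The paralogous clusters carry the same seeds and were the closest comparison. Their strands with the seed of Mir17 or Mir92-1 are shown because they set which genes enter each seed sum.

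Mir93, miR-93-5p: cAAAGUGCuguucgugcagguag

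Mir106b, miR-106b-5p: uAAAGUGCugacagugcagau

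Mir106a, miR-106a-5p: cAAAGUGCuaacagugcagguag

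Mir20b, miR-20b-5p: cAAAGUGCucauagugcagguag

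Mir25, miR-25-3p: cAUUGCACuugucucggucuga

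Mir363, miR-363-3p: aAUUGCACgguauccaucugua

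Strand miR-106a-5p differs from miR-17-5p by U10A alone, and miR-93-5p by U10G, A11U, C12U and A13C. The Mir106b cluster held 0.485% ± 0.0594 of gene counts (SD, n = 2), beside 0.366% ± 0.103 for the Mir17hg cluster. The Mir106a cluster held 0.0141% in replicate 1 and 0.00491% in replicate 2. Within the Mir106b cluster, Mir93 had 3689 and 3259 CPM, Mir106b 1194 and 794 CPM and Mir25 390 and 380 CPM. On the X chromosome, Mir20b had 42.0 and 21.2 CPM, Mir106a 26.5 and 13.5 CPM, Mir92-2 50.7 and 9.62 CPM and Mir363 21.4 and 4.33 CPM, while Mir18b had 2 reads and 1 read.

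By seed, the AAAGUGC family over 6 genes summed to 8118 and 6451 CPM in replicates 1 and 2, all of the 3 clusters. Mir17 and Mir20a supplied 39.0% of that in replicate 1 and 36.6% in replicate 2, or 37.8% ± 1.67 (SD, n = 2), and Mir93 with Mir106b supplied most of the rest. The AUUGCAC family summed to 1474 and 865 CPM over 4 genes of the 3 clusters, with Mir92-1 at 68.6% and 54.4% of it. Every gene with that seed, Mir32 and Mir92b included, summed to 1553 and 944 CPM. Of that larger sum Mir92-1 held a smaller share, with 1011 and 471 CPM. Of the AAGGUGC sum, Mir18 supplied 99.8% in replicate 1 and 99.5% in replicate 2. These sums count whole hairpins, so reads of the other arm are in them. The GUGCAAA family summed to only 5.56 and 1.44 CPM over its 3 genes, from 25 and 3 reads counted on chromosome 14. Reads of just miR-19b-3p or miR-92a-3p could not be placed, so they are missing from these sums. The GUGCAAA and AUUGCAC sums and shares are uncertain for this reason. Other genes with a member's seed lay under 100 CPM in each library. Mir32 had 61.6 and 48.6 CPM and Mir92b had 17.6 and 30.8 CPM, both chosen after their values were seen, and Mir367 and Mir6383 had 0 counts.

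Of the 9 paralogous genes 6 reached the count minimum, and all 6 were called higher in replicate 1 by the exact binomial test (38.7% of all genes were). The log2 ratios were -0.77 for Mir106b, -0.36 for Mir93, -0.22 for Mir25, -1.16 for Mir106a, -1.18 for Mir20b and -2.58 for Mir92-2. The edgeR exact test called none of these 6, and Mir92-2 was the single gene among them with an unadjusted p under 0.05 (exact test p = 0.0336, adjusted p = 0.720). With library size scaling Mir25 stood at -0.04 and was no longer called. In sum, the Mir17hg cluster stood 1.70-fold higher in replicate 1 (interval 1.65 to 1.75), the Mir106b cluster 1.35-fold (1.32 to 1.39) and the Mir106a cluster 3.27-fold (2.65 to 4.07). These folds are after TMM scaling, unlike the CPM levels and shares of the clusters given above. The log2 ratio of Mir17 lay near that of Mir93, and those of Mir20a and Mir18 near those of Mir106a and Mir20b. These likenesses were not tested.

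The miR-15/16 and miR-34 families restrain growth and stand on the other side of the cell cycle circuit in which the cluster works. Their 9 listed genes were all tested, with 5 called higher in replicate 1, 3 called higher in replicate 2 and a median log2 ratio of -0.29. The same exact binomial test called 78.1% of all 333 genes in either direction and 38.7% higher in replicate 1. The miR-34 genes stood at 0.27 (Mir34b, not called), 0.85 and 1.56. The miR-15/16 genes ran from -1.86 to 0.70, with only the highest of them, Mir15b, above 0. Mir15b lay above Mir34b, so the ranges of the families overlapped. A difference between the families was not tested. Mir195a had 2893 CPM in replicate 1 and 1032 CPM in replicate 2, and Mir16-1 had 2203 and 688 CPM, both called higher in replicate 1. Mir15a, with 1376 and 1282 CPM, was called higher in replicate 1 as well. Copies of the mature strands of these genes were not searched, so their levels and calls cover only reads that could be placed.

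Outside the 3 clusters, the genes with levels most like the cluster sum in both libraries were Mir98, Mir7b and Mirlet7f-2. Likeness was the Euclidean distance of log2(CPM + 1) over the 2 libraries, which was 0.33, 0.46 and 0.53. Mir7b, at 4326 and 2129 CPM, was also lower in replicate 2, as the cluster sum was (4387 and 2934 CPM), while Mir98 was near level at 3658 and 3385 CPM. Nearest to single members were Mir361 for Mir17 (distance 0.26), Mir409 for Mir20a (0.24), Mir376c for Mir92-1 (0.32) and Mir467e for Mir18 (0.20). Mir5101 lay nearest to Mir19a (0.15) and Mir1b, with the same 2 values, to Mir19b-1. With 2 libraries, such likeness rests on level and a single difference. It also rests on placed reads alone, since copies of the mature strands of these nearest genes were not searched.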

How the data were processed

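The deposited tables hold raw read counts per microRNA gene for mm10 (GENCODE M21), per the notes the authors deposited beside them, in a strand-blind column and a column for either strand. Which aligner and counter made them is not given in the sources used here. The strand column that held most gene reads, the same in both files, was taken as sense. Reads in no gene (unmapped, multimapping, no feature: 26.4%, 29.8% and 7.16% in replicate 1, and 51.9%, 21.5% and 6.46% in replicate 2) were left out of library sizes. Whether CAST/EiJ alleles changed mapping was not tested. Binomial p-values set the counts against counting noise alone and hold no spread between libraries. The edgeR exact test takes its spread from these same 2 libraries, and that spread may be technical.

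All 2202 identifiers matched GENCODE M21. Genes at 10 counts or more in each library entered exact binomial tests (two-sided, Benjamini-Hochberg at 0.05 over all 333 genes, TMM effective library sizes). The test was run on simulated counts that held counting noise alone, with raw library sizes. That run cannot show how the test behaves with the wider spread of these libraries. Software was R 4.3.3, edgeR 4.0.16, DESeq2 1.42.0, Python 3.11.15, SciPy 1.17.1, pandas 2.3.3, matplotlib 3.10.9 and ViennaRNA 2.7.2 (folding energies). Named genes were the members, the 9 paralogous genes, other genes with a member's seed at 100 CPM or more (none), the nearest genes and the 3 highest of each marker list by mean CPM. Mir486b was not matched. Members and lists were chosen with earlier results of these data known. Alternatives were library size or DESeq2 scaling, count minimums of 5, 50 and none, the strand-blind column, a linear correction for hairpin GC, the edgeR exact test, other totals, hairpin length and leaving out each library.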

Additional observations from a re-analysis of the deposited data

How the results depend on the processing

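The 4 members called higher in replicate 1 (78.1% of all genes were called in either direction) were also 4 under library size (78.4%) and DESeq2 scaling (79.3%), count minimums of 5 (69.9%) and 50 (91.1%), the strand-blind column (79.3%) and the GC correction (76.9%), and 5 of 6 with no minimum (39.9%). These settings used the same pair of counts of each member and changed only the scaling and the genes tested, so their agreement adds no new data. The edgeR exact test called 0 (1.80%), and none at an unadjusted p under 0.05. Library size scaling moved the median log2 ratio of all tested genes from 0.01 to 0.19. Over these alternatives the log2 ratios of Mir17, Mir18, Mir20a and Mir92-1 ran from -1.46 to -0.21, all toward replicate 1, with Mir17 lowest in size at -0.21 with library size and -0.24 with the GC correction. With no minimum Mir19a stood at -3.24 and Mir19b-1 at -1.41. The cluster's share was 0.293% and 0.439% with either library alone and 0.192% when multimapping reads joined the total, a larger total by construction. Mir17's share of the cluster was 47.8% and 61.8% with either library alone. The AAAGUGC sum was 6451 and 8118 CPM with either library alone, and 8931 CPM in the strand-blind column, whose gene total is smaller. Of the 6 members, 4 held their place in the order in replicate 2 alone and per hairpin length. Precision for Mir19a and Mir19b-1 is limited by depth, at 1 to 16 reads. No paired analysis was possible because there is a single group, so replicate numbers pair no samples across groups.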
